A study of Homo sapiens with 4 samples.

Results

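The 2 smallest rRNAs of the human cytoplasmic ribosome, 5S (RNA5S1, gene ID 100169751) and 5.8S (RNA5-8SN5, gene ID 100008587), were followed in RNA that came down with Flag-tagged SIRT7. They were taken from a table of read depth at every position of the rRNAs as all 121 positions of the 5S sequence and positions 6601 to 6757 of the 45S precursor, which are the 157 nucleotides (nt) of mature 5.8S. Together they hold 278 of the 15984 positions of the table and are 2 of its 10 regions; the others are 18S, 28S, the 4 spacers of the precursor (5'ETS, ITS1, ITS2 and 3'ETS) and the mitochondrial 12S and 16S. The cells were HEK293T, a human embryonic kidney line, with stable overexpression of Flag-SIRT7, at passages 10 to 15. Cytosol and nuclei were separated, the tagged protein was pulled from each with anti-Flag M2 gel, and the RNA released from the beads was sequenced with a directional kit. There were 2 libraries per fraction, 4 in all. All 4 carried the same construct, so the tagged protein was overexpressed in every sample. No untagged cells, mock pull-down or input RNA were analysed here. The depths therefore describe the RNA recovered from the beads of each fraction, not its enrichment over the fraction, and fewer molecules recovered and a smaller share of a library cannot be told apart. Whether replicates are separate cultures is not stated in the labels, and each p-value measures library-to-library spread, which may be technical.

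Ribosomes carry 5S, 5.8S and 28S in equal number in the large subunit and 18S in the small one. 5S is made by RNA polymerase III from tandem genes outside the nucleolus, is bound by the proteins RPL5 and RPL11, and is brought to the nucleolus to join the maturing large subunit. 5.8S is cut from the polymerase I transcript, where it lies between the spacers ITS1 and ITS2, and stays base-paired to 28S. Removal of ITS2 in the nucleus passes through precursors that carry 5.8S with a 3' tail of spacer. SIRT7 is a sirtuin, a protein deacylase of the nucleolus known for its ties to rRNA synthesis.

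The sequence of 5.8S is shown because depth was uneven along it. It is given in the reference letters of the deposited table, 5' to 3' with T for U, and capitals mark the nt that reached at least 50% of the RNA's highest depth in all 4 libraries.
5.8S rRNA: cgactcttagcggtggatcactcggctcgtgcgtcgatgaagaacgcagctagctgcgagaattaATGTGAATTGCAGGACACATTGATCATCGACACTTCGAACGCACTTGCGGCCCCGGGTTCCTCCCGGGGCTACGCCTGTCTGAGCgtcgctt
The capitals span nt 66 to 150 of 5.8S, 85 nt in its 3' part. G and C made up 58.8% of the capitals, against 55.4% before and 57.1% after them. In 5S the same threshold was met over nt 22 to 89, 68 nt in its middle. The RefSeq gene table (GRCh38.p14) places RNA5S1 on chromosome 1 and lists 17 RNA5S genes there, 5 RNA5-8SN genes and 510 5S pseudogenes. The depth table has 1 sequence for each RNA, so reads from different copies were not separated.

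The libraries were of like size. Summed depth was 3319051685 and 3158724762 in the cytosolic libraries, against 3384088983 and 3021350782 in the nuclear ones, or a mean of 207648, 197618, 211717 and 189023 reads over each position. Levels below are relative depths, the mean depth per nt of an RNA divided by that library mean, so RNAs of different length can be compared. The libraries were distinct, with equal depth at no more than 4 of the 278 positions of 5S and 5.8S between any pair. The nuclear libraries also held far more mitochondrial rRNA. 12S took 0.0179% and 0.0247% of the depth of the cytosolic libraries and 1.31% and 1.19% of the nuclear ones, and its part in the differences below was not tested. 18S took 25.2% and 27.5% in the cytosol, against 33.7% and 34.5% in the nucleus, and 28S 73.8% and 71.6% against 63.9% and 63.4%.

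5S was recovered at a low level in every library and at its lowest in the nucleus. Its mean depth was 803 and 770 reads in cytosolic replicates 1 and 2, and 594 and 272 in nuclear replicates 1 and 2. As relative depth these are 0.00387, 0.00390, 0.00281 and 0.00144. The cytosolic libraries were nearly equal, both nuclear libraries were lower, and nuclear replicate 2 stood well under nuclear replicate 1. The mean was 0.00388 ± 1.97e-05 (SD, n = 2) in the cytosol and 0.00212 ± 0.000966 (SD, n = 2) in the nucleus, with no overlap. The relative depths of the fractions did not overlap in any of the 10 regions, so this is not particular to 5S. A limma fit over the 10 regions gave a log2 difference, nucleus minus cytosol, of -0.95 (SE 0.36, 95% interval -1.92 to 0.02), a fold of 0.518 with an adjusted p of 0.0667, which misses the 0.05 threshold. In that fit 5 of the 10 regions, 50.0%, passed, and neither 5S nor 5.8S was among them. The log2 difference was -0.47 without nuclear replicate 2, -1.43 without nuclear replicate 1, -0.96 without cytosolic replicate 1 and -0.94 without cytosolic replicate 2. Each such fit leaves 1 library in a fraction and assumes that it varies like the other fraction, so its p says nothing of the spread of that fraction. At its deepest nt 5S had 1262, 1193, 946 and 440 reads, so its values rest on few molecules beside those of 5.8S.

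5.8S was recovered at close to the library mean in the cytosol and below it in the nucleus. Its mean depth was 199555 and 174859 reads in the cytosolic libraries, against 153727 and 101263 in the nuclear ones. The relative depths were 0.961 and 0.885 in the cytosol, against 0.726 and 0.536 in the nucleus. Both nuclear libraries were again below both cytosolic ones, with nuclear replicate 2 lowest. The fractions were apart in every other region too, in either direction. The means were 0.923 ± 0.0539 and 0.631 ± 0.135 (SD, n = 2 each). The limma log2 difference was -0.56 (SE 0.20, 95% interval -1.11 to -0.02), a fold of 0.676, and its adjusted p of 0.0649 also misses the threshold. For both RNAs an exact permutation test over the libraries gave p = 0.333, the smallest value that 2 against 2 allows. The call turned on the scaling: with median-of-ratios scaling the log2 differences of 5S and 5.8S were -1.17 and -0.78 and passed (limma adjusted p = 0.000102 and 0.00195), and with scaling to 28S they were -0.76 and -0.37 and did not (limma adjusted p = 0.201 and 0.200).

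**Figure D1:**
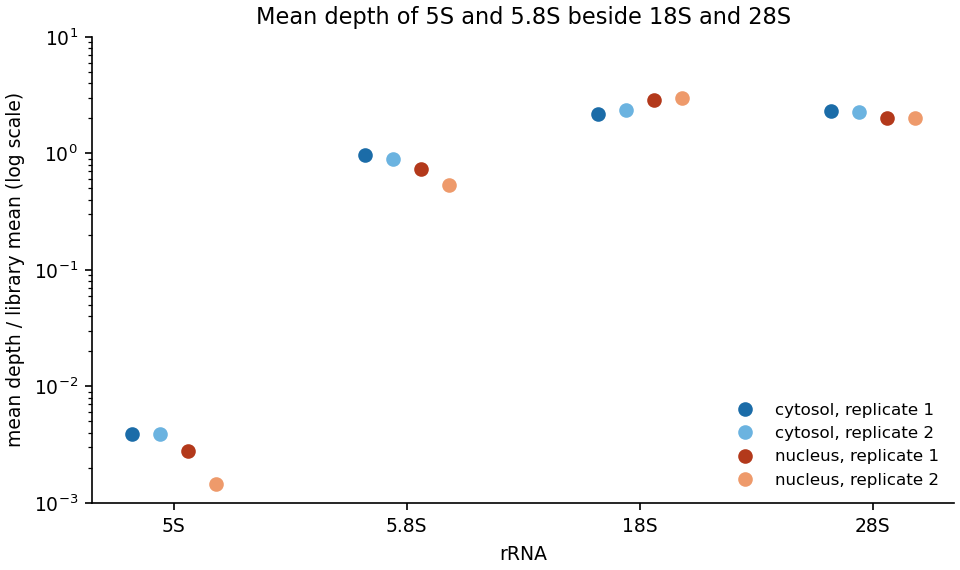
Mean depth of each cytoplasmic rRNA over the library mean (vertical axis, log scale), with 1 point per library for 5S, 5.8S, 18S and 28S. 5S lies between 0.00144 and 0.00390 and 5.8S between 0.536 and 0.961, and in both the 2 nuclear libraries are below the 2 cytosolic ones, with nuclear replicate 2 lowest.

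Set against each other within a library, 5S fell far short of 5.8S, although the ribosome holds them in equal number. The mean depth of 5S was 0.403% and 0.440% of that of 5.8S in the cytosolic libraries, against 0.386% and 0.269% in the nuclear ones. Nuclear replicate 1 was close to cytosolic replicate 1, and nuclear replicate 2 was apart. The log2 difference between fractions was -0.39, and it ranged from -0.65 to -0.12 when 1 library was left out, the smaller value coming without nuclear replicate 2. Against 28S, the partner of both in the large subunit, 5S stood at 0.166%, 0.173%, 0.139% and 0.0720% (log2 difference -0.76, and -0.28 without nuclear replicate 2). 5.8S stood at 41.3% and 39.2% of 28S in the cytosol, against 36.0% and 26.8% in the nucleus (log2 difference -0.37, and -0.16 without nuclear replicate 2). The groups did not overlap in any of these 3 ratios, and each had the smallest p that the exact permutation test allows, 0.333. With the median over positions in place of the mean, both 5S ratios lost this separation. Their log2 differences were then -0.12 against 5.8S and -0.46 against 28S (exact permutation p = 0.667 for the latter). That of 5.8S over 28S was -0.34, still at the minimum p. The shift was wider against 18S, the small subunit rRNA, where 5.8S stood at 44.5% and 37.6% in the cytosol, against 25.2% and 18.1% in the nucleus.

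Along the molecule, depth in 5S formed a hump with steep flanks. No read covered the last nt in any library, and the first nt had 1 read in cytosolic replicate 1 and none in the other 3. Depth reached 90% of the highest value in all 4 libraries over nt 36 to 84, a plateau of 49 nt. The stretch at 50% or more of the highest depth ran over nt 19 to 93 and 22 to 97 in cytosolic replicates 1 and 2, and over nt 18 to 89 in both nuclear libraries. This stretch therefore ended earlier in both nuclear libraries. The profiles of the 2 nuclear libraries were almost superimposable (Pearson r = 0.9992 over 121 nt) although their levels differed; the cytosolic pair had r = 0.9944 and the fraction means r = 0.9819. These correlations are across nt that share reads, and describe the curves only.

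**Figure D2:**
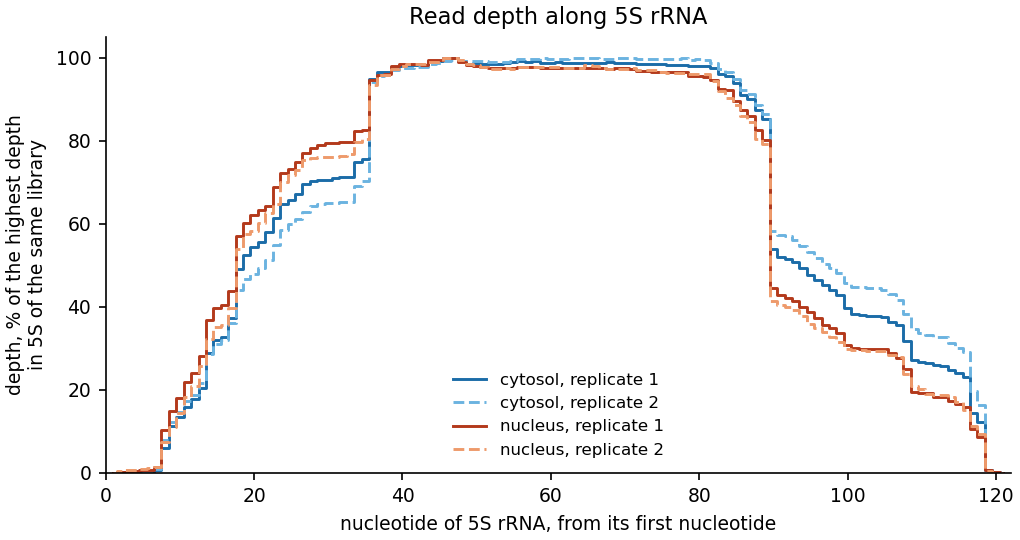
Read depth along 5S rRNA as a percent of the highest depth in 5S of the same library (vertical axis) by nucleotide (horizontal axis), 1 line per library. The nuclear lines lie above the cytosolic ones from nt 11 to 35 and below them from nt 49 to 119; at nt 90 depth is 44.5% and 41.4% in the nucleus, against 53.8% and 58.3% in the cytosol.

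The shoulders of 5S differed in height between the 2 fractions. The first 20 nt held 19.02% and 18.2% of the plateau depth in the cytosol, against 23.7% and 21.4% in the nucleus. The last 21 nt held 25.4% and 30.8% in the cytosol, against 19.4% and 19.4% in the nucleus. The nuclear libraries were thus higher at the 5' shoulder and lower at the 3' shoulder, with no overlap at either. The last 40 nt over the first 40 nt gave ratios of 0.952, 1.11, 0.733 and 0.748, a log2 difference of -0.48 that stayed between -0.59 and -0.36 with any 1 library left out. The exact permutation test gave p = 0.333, its minimum.

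The largest loss of depth from 1 nt to the next in 5S was at nt 90 in all 4 libraries, and the largest gain was at nt 36 in the cytosolic and at nt 18 in the nuclear libraries. At nt 18 depth rose by 11.9%, 8.13%, 13.3% and 14.1% of the highest depth. At nt 36 depth rose by 19.4% and 24.0% of the highest depth in the cytosolic libraries, against 11.8% and 13.0% in the nuclear ones. At nt 90 depth dropped by 31.4% and 28.1% in the cytosol, against 35.6% and 37.7% in the nucleus. The cytosolic libraries thus had the larger gain at nt 36 and the smaller loss at nt 90, without overlap. At nt 18 the nuclear libraries had the larger gain, also without overlap. A second loss at nt 119 took 11.5%, 15.5%, 7.82% and 8.86%, and here the cytosolic pair was the higher. The remaining steps among the 3 largest of a library were smaller. Gains at nt 14 were 8.40%, 6.96%, 8.67% and 6.59%, and gains at nt 8 were 5.15%, 6.96%, 8.77% and 6.14%. Losses at nt 117 were 8.56%, 9.39%, 5.29% and 3.86%, those at nt 109 were 4.52%, 3.44%, 5.50% and 2.95%, and those at nt 88 were 2.54%, 2.51%, 3.38% and 4.09%. Of these 5 steps the fractions were apart at nt 117, where the cytosolic pair was higher, and at nt 88, where the nuclear pair was. These sizes are given without a test. Separation of the fractions was not particular to these nt either. As depth over the RNA mean, the nuclear pair lay above the cytosolic pair at 63 of 121 nt and below it at 37.

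In 5.8S nearly all depth lay in the 3' part. Depth at nt 1 was only 34, 41, 31 and 20 reads, against highest depths of 365390, 320137, 281798 and 185501 at nt 77 in the cytosolic and nt 78 in the nuclear libraries. The first 60 nt held 3.96% and 4.01% of the depth of 5.8S in the cytosol, against 4.96% and 4.53% in the nucleus. The plateau at 90% or more spanned nt 70 to 119, 50 nt, and the stretch at 50% or more spanned nt 65 to 150 in both cytosolic and nt 66 to 151 in both nuclear libraries. The 4 profiles were nearly the same curve, with r = 0.9998 within each fraction and 0.9995 between the fraction means over 157 nt.

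**Figure D3:**
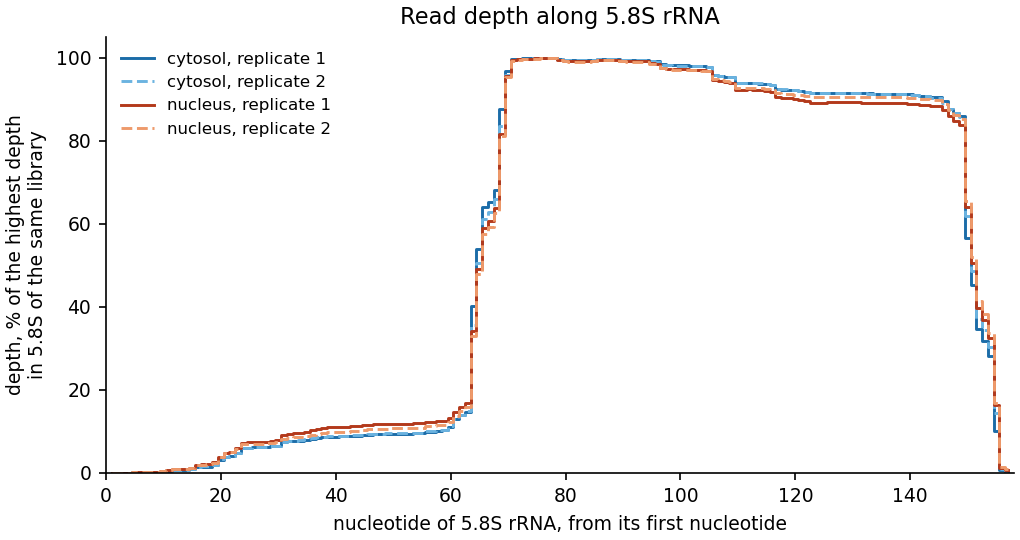
Read depth along 5.8S rRNA as a percent of the highest depth in 5.8S of the same library (vertical axis) by nucleotide (horizontal axis), 1 line per library. Depth stays under 17% up to nt 63 in all 4 libraries, climbs to over 95% at nt 70 and is under 1.5% at nt 156.

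The sequences at the edges of the covered part of 5.8S follow, with capitals from the first to the last nt of the steepest changes.
5.8S nt 52 to 81, gain: agctgcgagaatTAATGTgaattgcaggac
5.8S nt 138 to 157, loss: cgcctgtctgagCGTCGCTt
The climb took place in 3 main steps at nt 64, 65 and 69. At nt 64 depth rose by 25.6% and 20.7% of the highest depth in the cytosol, against 17.2% and 17.0% in the nucleus, with no overlap. At nt 69 the gains were 19.5%, 17.4%, 17.8% and 18.6%, and the fractions overlapped. The steps down were at nt 150, where depth dropped by 29.4% and 23.8% in the cytosol, against 19.8% and 19.6% in the nucleus, and at nt 155, where it dropped by 18.1%, 15.9%, 16.1% and 16.7%. At nt 65 the gains were 13.7%, 15.02%, 15.0% and 14.9%. The loss at nt 156 was 9.38% and 13.5% in the cytosol, against 15.2% and 15.5% in the nucleus, and that at nt 151 was 11.2% and 13.2%, against 13.6% and 13.5%. The cytosolic pair thus had the larger steps at nt 64 and 150 and the smaller ones at nt 151 and 156, without overlap. Separation of the fractions was not particular to these nt. As depth over the RNA mean, the nuclear pair lay above the cytosolic pair at 70 of 157 nt and below it at 78. The climb lies in the most A+T-rich part of the RNA. Nt 61 to 80 hold 30.0% G and C, the lowest of the 8 windows of 5.8S, and 32 of the 657 tested 20-nt windows of the table, 4.87%, are as low or lower.

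The 5' part of 5.8S was a larger share of the plateau in the nucleus. Nt 1 to 60 stood at 5.8% and 5.87% of the plateau depth in the cytosol, against 7.30% and 6.67% in the nucleus. The first 20 nt stood at 0.683% and 0.739%, against 0.961% and 0.927%. The nuclear libraries were higher in both stretches. The last 40 nt had 20.8, 20.6, 16.4 and 18.1 times the depth of the first 40 nt, a log2 difference of -0.27 (exact permutation p = 0.333, its minimum), with a range of -0.34 to -0.19 over the 4 leave-one-out values.

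Lower depth in the nucleus was then tested in windows of 20 nt. A limma fit over all 657 windows deep enough to test called 440 windows, 67.0%, in either direction and 162, 24.7%, as lower in the nucleus. Of the 6 windows of 5S 4 passed, all lower, and of the 8 of 5.8S 5, all lower, against 124 of 254 windows of 28S. The median log2 difference was -0.93 over the 5S windows and -0.55 over the 5.8S windows, against 0.15 over all tested windows. Neighbouring windows share reads and are not independent. The fit took the spread of every window from the trend of spread with depth, so the spread of these windows was estimated from windows of all RNAs. Without that trend 1 window of 5S and 0 of 5.8S were called by limma, with 2 and 5 at an unadjusted p under 0.05, and with no filter on low depth 0 and 0, with 1 and 5. Over all tested windows 51.0% were called without that trend and 53.7% with no filter.

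The difference in 5S was larger in each window toward the 3' end. The log2 difference was -0.65 at nt 1 to 20 and -0.77 at nt 21 to 40 (limma adjusted p = 0.0979 and 0.0545, not past the threshold). It was -0.92 at nt 41 to 60 and -0.94 at nt 61 to 80 (limma adjusted p = 0.0214 and 0.0186), then -1.11 at nt 81 to 100 and -1.44 at nt 101 to 121 (limma adjusted p = 0.00444 and 0.000128). The last window had mean depths of 315 and 364 reads in the cytosol, against 178 and 83.0 in the nucleus, so its nuclear depth was 0.381 of the cytosolic as relative depth. Without nuclear replicate 2 the log2 differences of the 6 windows ran only from -0.98 to -0.11, and without nuclear replicate 1 from -1.90 to -1.19. Without cytosolic replicate 1 they ran from -1.58 to -0.62, and without cytosolic replicate 2 from -1.31 to -0.68.

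The difference in 5.8S was flat over the covered part. It lay between -0.59 and -0.54 in the 5 windows from nt 61 to 157 (limma adjusted p from 5.92e-05 to 0.00246). At nt 81 to 100, the deepest window, relative depth was 1.75 and 1.61 in the cytosol, against 1.31 and 0.968 in the nucleus. The 3 windows of the thinly covered 5' part had -0.16, -0.32 and -0.32, were not called (limma adjusted p = 0.714, 0.354 and 0.322), and overlapped between the fractions. Without cytosolic replicate 1 the log2 differences of the 8 windows ran from -0.53 to -0.16, and without nuclear replicate 2 from -0.38 to 0.08.

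**Figure D4:**
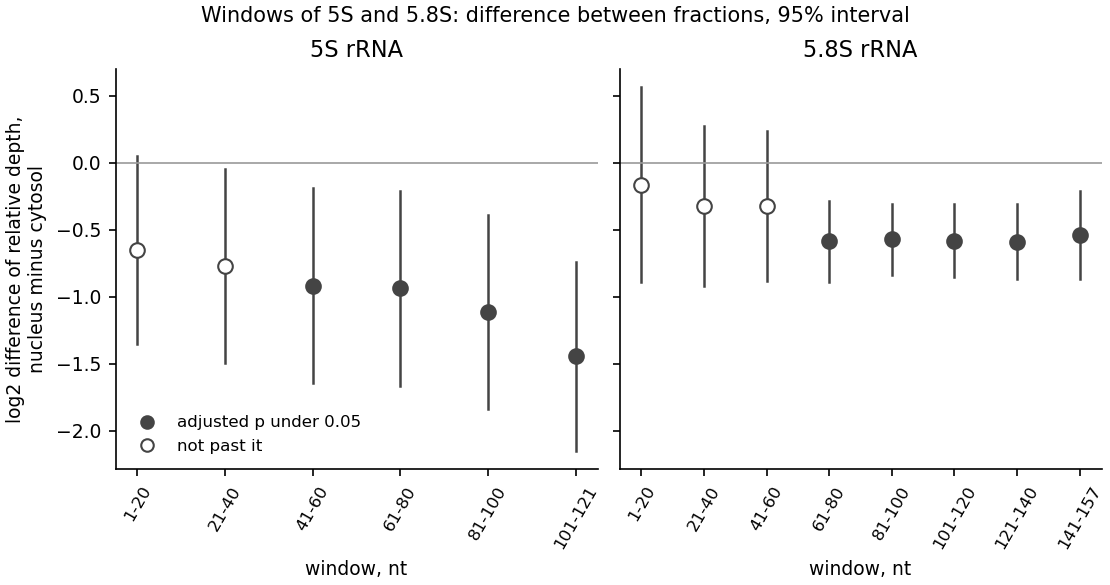
Log2 difference of relative depth, nucleus minus cytosol, for the windows of 5S (left) and 5.8S (right); points are limma estimates from 2 libraries per fraction, lines their 95% intervals, and filled points have an adjusted p under 0.05. Values go from -0.65 to -1.44 along 5S and stay between -0.59 and -0.54 from nt 61 of 5.8S on.

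Dividing each window by the mean of its own RNA removes the level and leaves the shape of the profile. In that limma fit 190 of the 657 windows, 28.9%, were called, but 0 of 6 in 5S and 0 of 8 in 5.8S, with 1 window in each RNA at an unadjusted p under 0.05. Closest to the threshold were nt 101 to 121 of 5S, with a log2 difference of -0.51 (limma adjusted p = 0.0754), and nt 1 to 20 of 5.8S, with 0.37 (limma adjusted p = 0.0916). The difference in the shoulders described above was therefore not called at the level of windows.

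In the precursor 5.8S adjoins spacer at both ends, which mature rRNA lacks and its precursors carry. The junctions are shown with 5.8S in capitals.
ITS1 (20 nt) and 5.8S (20 nt): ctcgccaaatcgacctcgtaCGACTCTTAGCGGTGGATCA
5.8S (20 nt) and ITS2 (40 nt): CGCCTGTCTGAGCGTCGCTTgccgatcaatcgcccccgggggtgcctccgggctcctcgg
On the ITS1 side there was little depth, between 9 and 39 reads over the last 20 nt of the spacer in the 4 libraries. Those 20 nt held 0.591%, 1.09%, 0.644% and 0.675% of the depth of the first 20 nt of 5.8S. The nuclear values lay between the cytosolic ones, and the log2 difference was -0.28 with an exact permutation p of 1. Without cytosolic replicate 2 it was 0.16.

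On the ITS2 side the nuclear libraries held more depth than the cytosolic ones, while 5.8S itself held less. At the first nt of ITS2 there were 817 and 937 reads in the cytosol, against 1713 and 1678 in the nucleus. That depth was 84.8% and 88.6% of the depth at the last nt of 5.8S in the cytosol, against 94.9% and 96.2% in the nucleus. The last nt of 5.8S itself stood at 0.270% and 0.339% of the plateau in the cytosol, against 0.661% and 0.969% in the nucleus. The first 20 nt of ITS2 held 0.214% and 0.244% of the depth of the last 20 nt of 5.8S in the cytosol, compared with 0.611% and 0.940% in the nucleus. Both nuclear values were above both cytosolic ones, the log2 difference was 1.73, and it stayed between 1.42 and 2.04 with any 1 library left out (exact permutation p = 0.333, its minimum).

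Within the first 100 nt of ITS2 the gap between the fractions was larger farther from 5.8S. All 5 windows of its first 100 nt were higher in the nucleus in the window fit, with log2 differences of 1.18, 1.73, 2.05, 2.36 and 2.38 in order from the 5.8S end (limma adjusted p from 6.52e-10 to 0.00268). The rise was not confined to them. ITS2 as a whole had a log2 difference of 1.67 in the region fit (limma adjusted p = 0.00334). Of its 40 tested windows 18 were called higher, against 278 of all 657, 42.3%. The median log2 difference over the 40 was 0.58, below that of each of the first 5, so the widening did not go on along the whole spacer. In the shape fit the 5 windows had -0.49, 0.06, 0.39, 0.69 and 0.72, all called but that of nt 21 to 40. Calls were common in that fit, with 28.9% of all 657 windows called. Of the 40 tested windows of ITS2 it called 5 higher and 20 lower. At nt 81 to 100 of ITS2 mean depth was 588 and 661 reads in the cytosol, against 2904 and 3569 in the nucleus. Against the 5.8S plateau that is 0.165% and 0.211% in the cytosol, against 1.06% and 1.98% in the nucleus. The nuclear excess of spacer next to the 3' end of 5.8S was thus small beside 5.8S itself in all 4 libraries. The 3 windows of ITS1 nearest to 5.8S had log2 differences between -0.41 and -0.29 and were not called. ITS1 as a whole was higher in the nucleus, with a log2 difference of 1.11 (limma adjusted p = 0.00748). Of its 36 tested windows 25 were called higher and 0 lower. In the shape fit the 3 windows nearest to 5.8S were called lower, at -1.56 to -1.45 (limma adjusted p from 0.0278 to 0.0421).

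**Figure D5:**
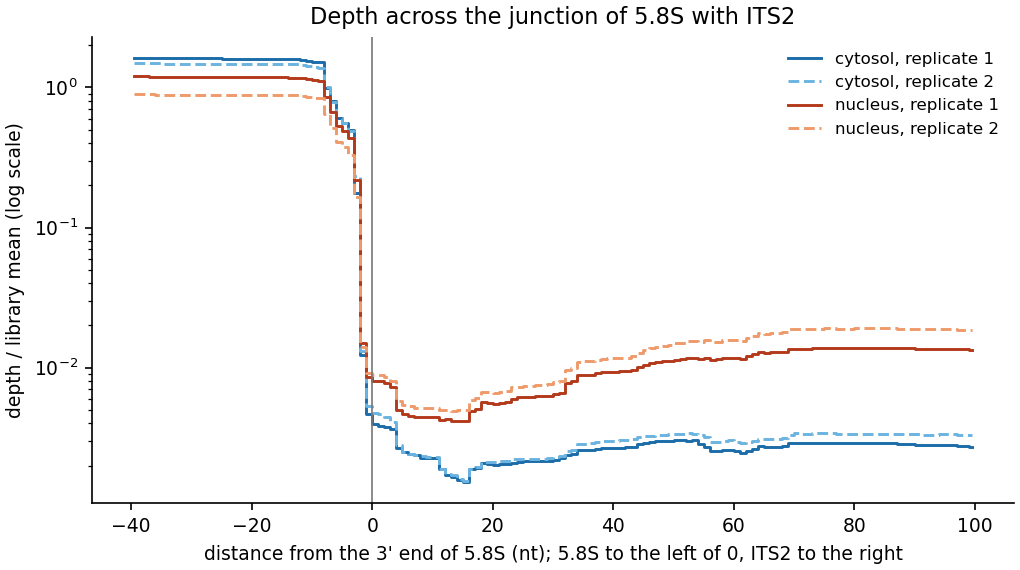
Depth over the library mean (vertical axis, log scale) by distance from the 3' end of 5.8S (horizontal axis, nt), with the last 40 nt of 5.8S left of 0 and the first 100 nt of ITS2 right of 0, 1 line per library. The nuclear lines lie below the cytosolic ones up to nt 154 of 5.8S and above them over all 100 nt of ITS2, where the first nt has 817 and 937 reads in the cytosol, against 1713 and 1678 in the nucleus.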

How the data were processed

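The authors deposited signal, the whole-number read depth at each rRNA position; column totals differ, and no scaling is named in the header. The submitters' processing notes name cutadapt 1.5, Bowtie2 2.2.6 and SAMtools; settings, strand counted and handling of reads matching several copies are not given in the sources used. Mature boundaries were derived from RefSeq gene starts. Depth was divided by the library mean over all 15984 positions. The 10 regions were fitted on log2 relative depth and the 20-nt windows on log2(relative depth + 0.00001) with a trend, where mean depth reached 10 in at least 2 libraries, with limma 3.58.1 in R 4.3.3 and Benjamini-Hochberg adjustment over all features of a fit. Shape used window over RNA mean + 0.001. Ratios within a library used two-sided exact permutation tests (SciPy 1.17.1). The text names both RNAs, all their windows, both junctions of 5.8S and, per library, the 3 largest gains and losses of depth; the depths at single nt, the plateau shares and the rank of the G+C content were added with the values in view. The members and tests were chosen with earlier results of these data known. The sequence of 5S is not reported here.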

Additional observations from a re-analysis of the deposited data

How the results depend on the processing

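The 13 results were recomputed under 113 alternatives. In 89 they kept their direction, and their side of the threshold where the alternative gave a p, or, for counts of windows, came within 1.5 times of the reported count; 8 passed the threshold where the reported fit did not, 15 counts moved by more than that and 1 value reversed. Median-of-ratios scaling, which moves every difference of nucleus minus cytosol by -0.22 on the log2 scale, gave -1.17 for the 5S share and -0.78 for 5.8S (limma adjusted p = 0.000102 and 0.00195). With a mean-variance trend 5.8S was at -0.56 (limma adjusted p = 0.000211), while 5S was at -0.95 and still missed the threshold (limma adjusted p = 0.0542). The deviations of same-numbered libraries had r = 0.000893 over 657 windows. With 2 libraries per fraction this is a single value whose sign is set by the numbering. It cannot decide whether the libraries were prepared as pairs. The replicate block gave -0.95 and -0.56 for 5S and 5.8S, both at a limma adjusted p of 0.0473, and 2 called windows in 5S. Leaving out 1 library gave -1.43 to -0.47 for 5S (limma adjusted p from 0.00393 to 0.227) and -0.78 to -0.34 for 5.8S (from 0.0185 to 0.227), the lone library of a fraction being assumed to vary like the other fraction. The count of called windows, 4 of 6 in 5S and 5 of 8 in 5.8S, was 2 in 5S with scaling to 28S and 2 and 1 with a pseudocount of 0.01. It was 9 of 12 and 9 of 16 in windows of 10 nt, where the tally compared counts and not shares. It was 1 and 0 with no trend, and 0 and 0 with no filter on low depth. Over all tested windows 67.0% were called in the reported fit and 65.8% with the replicate block. The share was 62.3% with scaling to 28S, 55.3% with the pseudocount of 0.01 and 66.9% in windows of 10 nt. It was 51.0% with no trend and 53.7% with no filter. The limma counts of 0 had 5 windows of 5.8S with no trend, and 1 of 5S and 5 of 5.8S with no filter, at an unadjusted p under 0.05. Over the leave-one-out fits the counts were 0 to 6 in 5S and 3 to 6 in 5.8S. For shape, 1 of 8 windows of 5.8S was called with no trend, against 25.4% of all tested windows. The junction with ITS1 reversed to 0.16 without cytosolic replicate 2 (range -0.72 to 0.16); the cause was not tested in any of these. With 2 libraries per fraction no exact test could pass 0.05. For the ratios and junctions the tally could therefore count only a change of direction. 5S was at most 1262 reads deep.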
